A study of Mus musculus with 30 samples.

Results

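Voltage-gated sodium and calcium channel genes were followed through the first day after a single neonatal dose of estradiol benzoate (EB, an esterified estrogen). Members were the genes whose symbol on the array annotation begins with Cacna, Cacnb or Cacng, or is Scn followed by a number and a or b, and only probe sets that carry a single gene symbol were used. This gave 35 genes of the 18193 genes on the array, with 85 probe sets. A gene was represented by its brightest probe set, that with the highest mean log2 signal over the 30 arrays, and 28 of the 35 genes remained after the lowest 40% of all probe sets by mean signal was left out. None of these choices used a difference between groups.

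Newborn female C57BL/6J mice received EB (7.5 μg per animal in peanut oil, under the skin) or the oil alone on the day of birth, and the whole hypothalamus was collected 1, 3, 6, 12 or 24 h later. The 10 groups held 3 arrays each, which are labelled as biological replicates. RNA came from whole tissue, so fewer cells of a type and less RNA per cell cannot be told apart. Within a treatment, time after injection, age and hour of the day change together and cannot be told apart. Signals are MAS5 intensities that were scaled so that all arrays share one median, and every change given here is relative to that median.

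Voltage-gated sodium channels carry the rising phase of the action potential, and voltage-gated calcium channels turn depolarization into calcium entry that drives transmitter release, burst firing and gene transcription. In both families a large pore protein sets voltage dependence and conductance, while auxiliary subunits (beta for sodium channels, beta, alpha2delta and gamma for calcium channels) govern trafficking and gating. During brain maturation the embryonic sodium pore Scn3a gives way to Scn1a, Scn2a and Scn8a, and in hypothalamic neurons the low-threshold T-type calcium pores Cacna1g and Cacna1h support rebound bursts.

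The tissue label was checked against hypothalamic markers: of 10 genes chosen for this (such as Pmch, Avp, Oxt and Agrp) 9 were on the array and all 9 lay above the filter. All 16 pan-neuronal markers did so too, whereas 11 of 14 skeletal muscle genes and 7 of 9 pituitary genes, Gh, Prl and Cga among them, lay below it. The deposited medians of the arrays ran between 28.03 and 66.91 and were highest in both 12 h groups. A set of 18 leptomeningeal fibroblast markers separated the EB arrays at 24 h from the rest: 16 of 18 were lower than in oil (adjusted p under 0.05 from limma), and the median over the 18 was -2.33 on the log2 scale. Their summed signal was 831, 817 and 5226 in the EB arrays at 24 h and 11492, 10404 and 9526 in the oil arrays.

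Of the comparisons of EB-treated with oil-treated mice, that at 24 h called 1 channel gene and the earlier ones none. No channel gene passed at 1, 3, 6 or 12 h (0 of 28 at each time, adjusted p under 0.05 from limma, Benjamini-Hochberg over all 27022 probe sets), where 0.0037%, 0.474%, 0% and 0% of all probe sets did. At an unadjusted p under 0.05 the counts were 3, 5, 3 and 5 of 28 at these times, against 8.63%, 12.8%, 6.02% and 6.57% of all probe sets. An unmoderated contrast of a fit with treatment and time as factors, made on the deposited signals with the same adjustment, called 0, 0, 0 and 1 channel genes at these times and 0 at 24 h, against 0.0111%, 0.104%, 0%, 1.92% and 0.0037% of all probe sets. At 24 h 1 of 28 genes (3.57%) was called, against 2.77% of all probe sets, and this was Cacna1h, lower in EB. The share of channel genes was thus near that of all probe sets. Averaged over the 5 times, limma called 0 channel genes against 0.074% of all probe sets, with 5 at an unadjusted p under 0.05 (8.69% of all probe sets). The median log2 fold change over the 28 genes was between -0.03 and 0.12 at the 5 times, and that of all probe sets between -0.01 and 0.05.

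Groups of 3 arrays that did not overlap were counted as well. At 1 h all EB arrays lay above all oil arrays for 4 channel genes and below them for 1, while 17.6% of all probe sets were separated in one direction or the other. The counts were 3 higher and 0 lower at 3 h (14% of all probe sets), 1 and 0 at 6 h (9.98%), 3 and 3 at 12 h (11.3%), and 3 and 5 at 24 h (24.1%). With 3 arrays on each side the smallest two-sided p of an exact permutation test is 0.1, so these counts describe the arrays only.

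**Figure D1:**
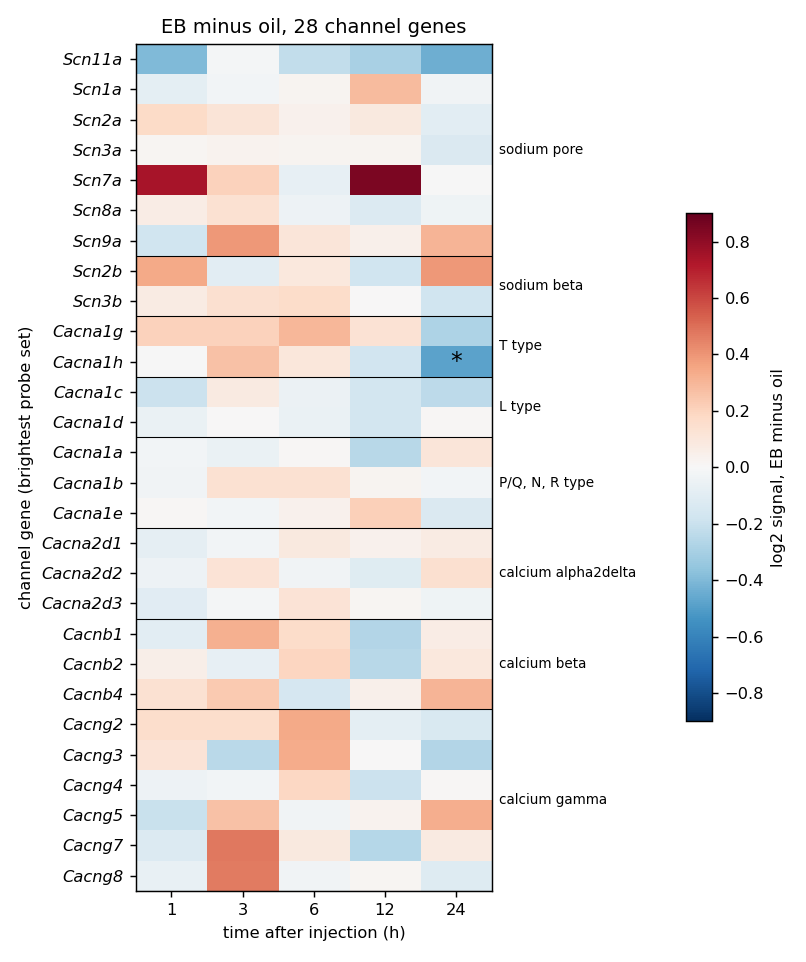
Log2 signal of EB minus oil (color) for the 28 channel genes (rows, brightest probe set, grouped by subunit) at 5 times after injection (columns, h), each the difference of the means of 3 arrays. The asterisk marks the only adjusted p under 0.05 from limma, Cacna1h at 24 h (-0.48), and the highest value is that of Scn7a at 12 h (0.85), which did not pass.

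Both T-type pores had EB arrays that lay entirely below the oil arrays at 24 h, and 1 of them passed. Cacna1h (chr17:25374285-25436334, GRCm38.p6), whose product opens near the resting potential and supports burst firing, had signals of 279, 222 and 283 in EB-treated mice at 24 h, against 368, 344 and 374 in oil-treated mice. The groups did not overlap, and Cacna1h was down-regulated (log2 fold change -0.48, standard error 0.11, adjusted p = 0.0138 from limma, 0.718-fold). At 3 h the order was the opposite: 397, 374 and 314 in EB and 295, 297 and 309 in oil, again without overlap, with a log2 fold change of 0.26 that did not pass (adjusted p = 0.301 from limma). Within EB, Cacna1h was lower at 24 h than at 12 h (log2 fold change -0.43, standard error 0.11, adjusted p = 0.00954 from limma), where 11.2% of all probe sets passed, and the arrays at 24 h lay below all others: 319, 293 and 287 at 1 h, 397, 374 and 314 at 3 h, 351, 330.4 and 433 at 6 h, 314, 338 and 406 at 12 h, and 279, 222 and 283 at 24 h. In oil the signals were 276, 314 and 312 at 1 h, 295, 297 and 309 at 3 h, 355, 336 and 341 at 6 h, 415, 358 and 418 at 12 h, and 368, 344 and 374 at 24 h, with the 12 h and 24 h arrays above all of those at 1 h and 3 h. Both courses passed the test over the 5 times (adjusted p = 0.00401 in EB and 0.0164 in oil).

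The 24 h call of Cacna1h was lost without EB replicate 2 (log2 fold change -0.37, adjusted p = 0.138), without oil replicate 1 (adjusted p = 0.065), without oil replicate 3 (adjusted p = 0.0589) and without scaling of the arrays (log2 fold change -0.25, adjusted p = 0.417 from limma), while without EB replicate 3, the EB array with the highest leptomeningeal sum, it was -0.54 with an adjusted p of 0.0122. The unmoderated test on the deposited signals gave an adjusted p of 0.631, and the dimmer second probe set of the gene, 29.9, 13.9 and 32.2 in EB and 25.8, 33.6 and 29.8 in oil, overlapped and was not called (adjusted p = 0.66 from limma). Beside the leptomeningeal markers given above, the pan-neuronal markers summed to between 46257 and 50425 in the EB arrays at 24 h and to between 53435 and 56371 in the oil arrays, with a median log2 fold change of -0.18 and 1 of 16 called lower. Other marker sums that did not overlap at 24 h were those of astrocytes and radial glia (14149 to 15899 in EB and 17253 to 18060 in oil, 1 of 12 called lower), microglia and macrophages (933 to 1019 in EB and 1095 to 1213 in oil, 2 of 11 lower), endothelial and mural cells (1904 to 2217 in EB and 2253 to 2402 in oil, 0 of 15 called) and the 2 pituitary genes above the filter (857 to 1001 in EB and 723 to 789 in oil, 0 called). The part of these marker sets in the Cacna1h difference was not tested.

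Cacna1g, the other T-type pore, followed a similar order without passing. At 1 h it read 288, 299.9 and 283 in EB and 249, 257 and 249.7 in oil, and at 24 h 264, 286 and 305 in EB and 331, 359.7 and 346 in oil. All EB arrays were thus above all oil arrays at 1 h and below them at 24 h, with log2 fold changes of 0.20 (adjusted p = 0.636) and -0.28 (adjusted p = 0.208) from limma. At 6 h the EB arrays spread widely, at 256, 335 and 372 against 269, 272 and 233 in oil. Whether the effect of EB differed between times was tested by the interaction of treatment and time: no channel gene passed (0 of 28, against 0.951% of all probe sets, and 5 at an unadjusted p under 0.05, against 16% of all probe sets), and Cacna1h and Cacna1g had adjusted p of 0.058 and 0.17 from limma. The EB minus oil difference at 24 h less that at 1 h was -0.47 for Cacna1h and -0.48 for Cacna1g (adjusted p = 0.147 for each; 0.995% of all probe sets passed this contrast and 0 of 28 channel genes did, 4 of them at an unadjusted p under 0.05, against 13.6% of all probe sets). With array weights both genes passed the interaction, at adjusted p of 0.00754 and 0.0471. Cacna1i, the remaining T-type gene, was not analysed here.

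Cacnb4, a beta subunit that carries calcium pores to the membrane, was the next gene by p at 24 h. Its brightest probe set gave 324, 292 and 297 in EB and 258, 236 and 245 in oil, without overlap but short of the threshold (log2 fold change 0.30, standard error 0.10, adjusted p = 0.0899 from limma), and it passed only with array weights (adjusted p = 0.0482). Its second probe set gave 238, 195 and 171 in EB and 141, 142 and 159 in oil and was called higher (log2 fold change 0.44, standard error 0.11, adjusted p = 0.0257 from limma). This was 1 of 34 dimmer channel probe sets at 24 h (2.77% of all probe sets), and the call was lost without oil replicate 1 or 2 or without EB replicate 1 or 2 (adjusted p of 0.0762 to 0.23), without scaling (0.0679) and in a fit of only the 6 arrays of that time (0.0809). The third probe set did not differ by more than the spread of the arrays, at 89.1, 100.2 and 92.6 in EB and 89.5, 102 and 84.4 in oil.

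**Figure D2:**
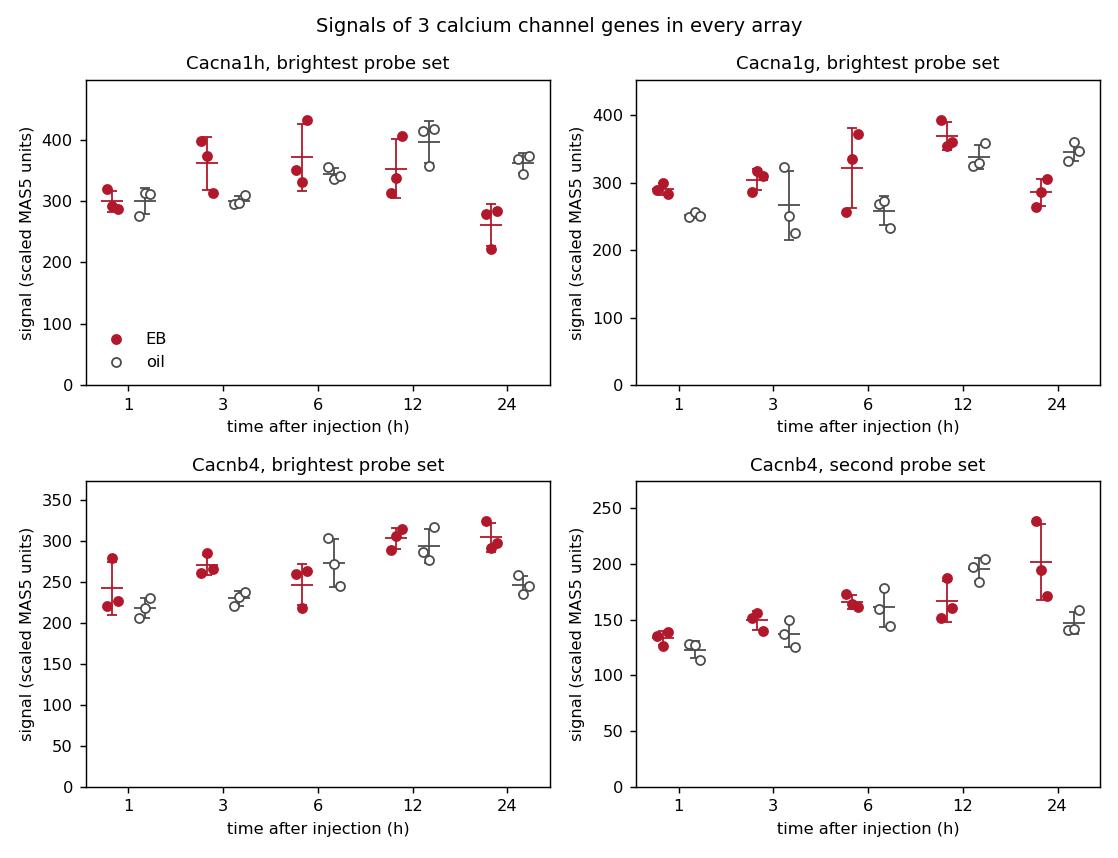
Signal of each array (y axis, scaled MAS5 units from 0) at each time (x axis, hours since injection) for Cacna1h, Cacna1g and 2 probe sets of Cacnb4, with filled red circles for EB, open circles for oil, and the mean with its SD of 3 arrays as bars. At 24 h the EB arrays of Cacna1h (279, 222 and 283) lie below the oil arrays (368, 344 and 374), and those of both Cacnb4 probe sets lie above.

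The other genes with the smallest p at each time did not pass. At 1 h Scn7a, which encodes a sodium-sensing relative of the sodium pores found in glia of the circumventricular organs, read 31.9, 20.9 and 36.0 in EB and 27.0, 15.8 and 12.0 in oil, with overlap, and Scn2a, the main pore of immature axons, read 1473, 1297 and 1383 in EB and 1268, 1159.8 and 1257 in oil, all EB arrays being higher (adjusted p = 0.5 and 0.547 from limma). At 3 h Cacng8, a gamma subunit that also serves AMPA receptors, read 65.5, 77.8 and 72.7 in EB and 70.1, 59.0 and 34.0 in oil, where one oil array was far below the others. Scn9a, a pore best known from sensory neurons and also present in hypothalamic neurons, read 292, 227 and 322 in EB and 163, 257 and 226 in oil at 3 h. Both of these groups overlapped (adjusted p = 0.251 and 0.266 from limma).

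At 6 h Cacng2, the gamma subunit stargazin that brings AMPA receptors to the synapse, read 359.8, 392 and 478 in EB and 356, 319.6 and 293 in oil, just without overlap (adjusted p = 0.547 from limma). At 12 h Cacna1e, the R-type pore, read 701, 716 and 722 in EB and 591, 599 and 659 in oil, and Scn1a, the pore of fast-spiking interneurons, 244, 239.5 and 279.7 in EB and 195, 214 and 216 in oil. All EB arrays were higher for both genes, yet neither passed (adjusted p = 0.644 and 0.651 from limma). Scn7a at 12 h had signals of 60.5, 53.2 and 57.8 in EB, against 24.1, 42.2 and 31.4 in oil, a log2 fold change of 0.85 (standard error 0.31) between groups that did not overlap. limma did not call it (adjusted p = 0.685), and it was the 1 gene called by the unmoderated test on the deposited signals at that time (adjusted p = 0.0384). In the second probe set of Scn7a the groups overlapped at 12 h (log2 fold change 0.40, adjusted p = 0.879 from limma). At 1 h its log2 fold change was 0.11 (adjusted p = 0.945 from limma), against 0.74 in the brightest probe set. Both lay near the filter, with mean signals of 34.1 (brightest) and 30.6 (second), where the lowest mean signal kept was 21.9.

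More channel genes passed a test over time than a test of EB. In EB-treated mice 5 of 28 genes changed over the 5 times (17.9%, moderated F test of limma), against 22.8% of all probe sets, and in oil-treated mice 17 of 28 did (60.7%), against 34.1% of all probe sets. The difference between treatments is the interaction given above, which no channel gene passed. Of the marker lists, the test in oil called 12 of 16 pan-neuronal, 9 of 12 astrocyte and radial glia and 5 of 9 hypothalamic markers. It called 5 of 11 microglial, 3 of 8 oligodendrocyte, 2 of 15 endothelial and mural and 1 of 18 leptomeningeal markers. None of the muscle or pituitary genes above the filter was called in oil. Over time in EB, 9 of 16 pan-neuronal, 9 of 12 astrocyte and radial glia and 4 of 9 hypothalamic markers were called. So were 9 of 11 microglial, 3 of 8 oligodendrocyte, 5 of 15 endothelial and mural and 17 of 18 leptomeningeal markers. No muscle or pituitary gene was called in EB. The part of these markers in the counts of channel genes was not tested. The 5 genes called in EB (Cacna1h, Cacnb4, Scn9a, Cacna1e and Cacna2d2) were all called in oil too. By subunit, the genes called in oil were 6 of 7 sodium pores, 1 of 2 sodium beta subunits, both T-type pores, 0 of 2 L-type pores, 2 of 3 pores of the P/Q, N and R types, 1 of 3 alpha2delta, 1 of 3 beta and 4 of 6 gamma subunits. With single arrays left out, the counts lay between 3 and 7 in EB and between 12 and 17 in oil, the 3 being reached without EB 1 h replicate 1.

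Without scaling, the median of all probe sets in oil was 0.88 higher on the log2 scale at 12 h than at 6 h and 1.05 lower at 24 h than at 12 h. The time courses below are therefore given relative to the array medians. All 28 genes were called over time in both treatments without scaling. The share of all probe sets in that setting is not given here, so this count says nothing particular to the channel genes.

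**Figure D3:**
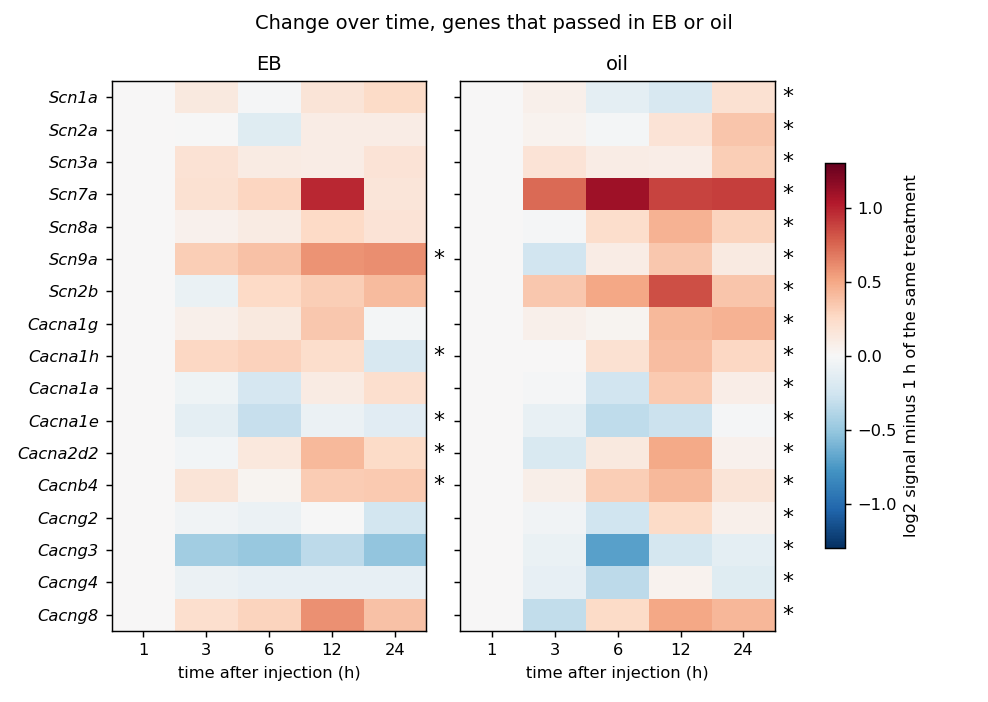
Mean log2 signal (color) at each time after injection (columns, h) minus the mean at 1 h of the same treatment, for the 17 channel genes (rows) called over time, with EB on the left and oil on the right. An asterisk right of a row marks an adjusted p under 0.05 from limma in that treatment, which 5 genes reached in EB and 17 in oil.

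In EB-treated mice 2 genes were called at 24 h against 1 h (7.14%, against 10.2% of all probe sets), both higher. Scn9a read 364, 359.7 and 294 at 24 h and 208, 209 and 251 at 1 h (log2 fold change 0.60, standard error 0.16, adjusted p = 0.0121 from limma), and Cacnb4 read 324, 292 and 297 at 24 h and 220.2, 279 and 227 at 1 h (log2 fold change 0.34, standard error 0.10, adjusted p = 0.0239 from limma). The arrays at 24 h were above those at 1 h in both genes. The call of Scn9a was lost without replicate 1 or 2 of either time, and that of Cacnb4 without EB 1 h replicate 1 or 3 or EB 24 h replicate 1. The 3 dimmer probe sets of Scn9a did not pass this contrast (log2 fold changes of 0.33, 0.25 and 0.37, adjusted p = 0.485, 0.495 and 0.329 from limma), and of those of Cacnb4 the second passed (0.58, adjusted p = 0.00125) and the third did not (-0.0801, adjusted p = 0.804). In the same contrast 17 of 18 leptomeningeal markers (median log2 fold change -2.83), 7 of 16 pan-neuronal, 6 of 15 endothelial and mural and 4 of 11 microglial markers were lower, and of the 12 astrocyte markers 4 were lower and 1 higher. Their part in these changes was not tested.

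In oil-treated mice several sodium pores were higher at 24 h than at 1 h. Here 4 of 28 genes were called (14.3%, against 6.77% of all probe sets), all higher: Scn2a, Scn3a, Scn8a and the T-type pore Cacna1g. Scn2a read 1626, 1609 and 1510.0 at 24 h and 1268, 1159.8 and 1257 at 1 h (log2 fold change 0.37, standard error 0.08, adjusted p = 0.00504 from limma). Scn3a, the embryonic pore, read 1031, 1067 and 1049.7 at 24 h and 857, 820.1 and 838 at 1 h (log2 fold change 0.32, adjusted p = 0.0143 from limma). Scn8a, the pore of mature axon initial segments and nodes, read 549, 551 and 528 at 24 h and 461, 420.0 and 452 at 1 h (log2 fold change 0.29, adjusted p = 0.029 from limma). In each of the 3 genes every array at 24 h was above every array at 1 h.

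Of these calls, that of Scn2a held when any array was left out and in its second probe set (log2 fold change 0.37, adjusted p = 0.0313 from limma), but its probe sets of rank 3 and rank 4 by brightness did not pass (0.10, adjusted p = 0.632, and -0.30, adjusted p = 0.414). That of Scn3a was lost without oil 1 h replicate 2 or 3 or oil 24 h replicate 2, that of Cacna1g without oil 1 h replicate 3 or oil 24 h replicate 2, and that of Scn8a without oil 1 h replicate 2 or 3 or any oil array of 24 h and with quantile normalization (0.23, adjusted p = 0.0619). The 3 dimmer probe sets of Scn8a did not pass (0.30, -0.0604 and -0.15, adjusted p = 0.193, 0.845 and 0.664 from limma). Without scaling 0 channel genes passed, and the change of Scn8a was -0.0097. For Scn2a, Scn3a and Scn8a the changes in EB were 0.10, 0.18 and 0.18 and did not pass (adjusted p = 0.473, 0.166 and 0.154 from limma), while the difference of the changes between EB and oil, tested for every gene in the contrast given above, was not called for any of them. At 24 h against 1 h in oil, 3 of 12 astrocyte and 1 of 16 pan-neuronal markers were called higher. Of the endothelial and mural markers 1 of 15 was lower, and no marker of the other cell types was called. The part of these markers in the oil changes was not tested.

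**Figure D4:**
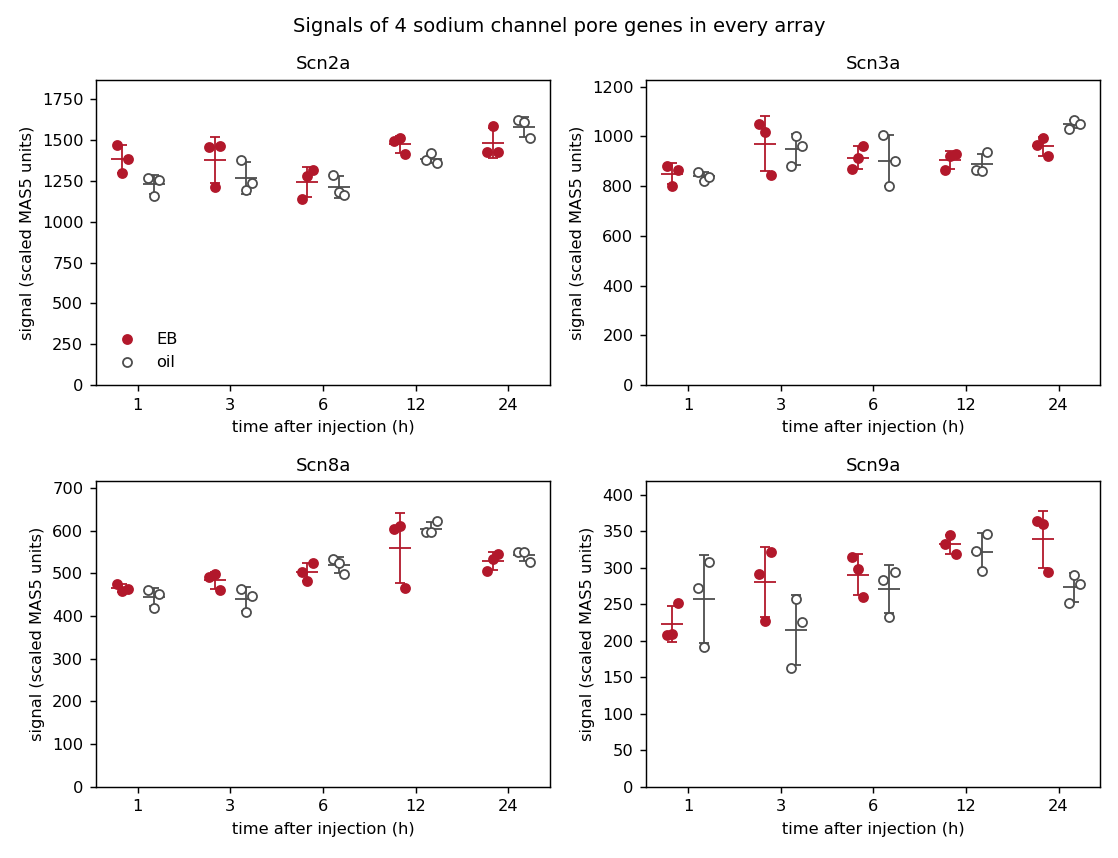
Signal of each array (y axis, scaled MAS5 units from 0) at each time (x axis, hours since injection) for the sodium pore genes Scn2a, Scn3a, Scn8a and Scn9a, with filled red circles for EB, open circles for oil, and the mean with its SD of 3 arrays as bars. The oil arrays of Scn2a lie at 1626, 1609 and 1510.0 at 24 h, above those at 1 h (1268, 1159.8 and 1257).

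The promoters of Scn8a and Scn2a are shown because these 2 genes had the smallest p over time in oil among the sodium pores. RefSeq windows (GRCm38.p6, 250 bases before to 50 after an annotated start) were matched by symbol for 27 of the 35 channel genes, 37 windows in all, and both genes have a pair of annotated starts, all on the plus strand. Estrogen receptors bind paired copies of the motif GGTCA, which reads TGACC on the other strand, and capitals mark this motif in the sequences, searched on both strands. The windows of Scn8a lie at chr15:100870395-100870694 and chr15:100936021-100936320, and those of Scn2a at chr2:65620519-65620818 and chr2:65668436-65668735.
Scn8a, upstream start: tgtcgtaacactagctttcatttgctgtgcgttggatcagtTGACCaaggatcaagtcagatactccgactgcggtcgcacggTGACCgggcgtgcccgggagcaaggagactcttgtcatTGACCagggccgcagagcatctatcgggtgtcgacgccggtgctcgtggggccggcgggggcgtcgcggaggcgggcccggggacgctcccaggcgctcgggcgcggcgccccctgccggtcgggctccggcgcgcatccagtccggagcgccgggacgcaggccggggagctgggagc
Scn8a, downstream start: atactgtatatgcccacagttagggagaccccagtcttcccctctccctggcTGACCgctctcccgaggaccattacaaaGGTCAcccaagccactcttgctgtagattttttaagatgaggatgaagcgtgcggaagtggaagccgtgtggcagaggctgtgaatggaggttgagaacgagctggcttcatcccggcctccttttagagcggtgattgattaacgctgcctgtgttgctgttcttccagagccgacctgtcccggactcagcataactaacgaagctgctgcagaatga
Scn2a, upstream start: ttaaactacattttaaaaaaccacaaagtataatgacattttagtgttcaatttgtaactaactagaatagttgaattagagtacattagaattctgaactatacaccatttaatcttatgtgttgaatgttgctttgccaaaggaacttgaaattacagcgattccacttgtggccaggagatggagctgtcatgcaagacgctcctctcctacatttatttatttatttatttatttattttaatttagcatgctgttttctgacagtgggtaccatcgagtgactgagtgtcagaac
Scn2a, downstream start: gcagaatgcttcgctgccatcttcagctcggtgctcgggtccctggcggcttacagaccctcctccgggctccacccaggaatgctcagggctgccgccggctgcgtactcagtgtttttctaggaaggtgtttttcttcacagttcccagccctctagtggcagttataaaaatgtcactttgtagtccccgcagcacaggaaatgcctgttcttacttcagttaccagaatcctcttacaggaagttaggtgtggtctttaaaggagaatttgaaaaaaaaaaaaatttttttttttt

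The windows of Scn8a held 3 and 2 copies of this motif and those of Scn2a 0 each. A copy was present in 11 of the 37 channel windows (29.7%), against 40.5% of all 32851 promoter windows. The full palindrome GGTCANNNTGACC was in 0 of the 37 channel windows and in 0.07% of all windows. The windows of Scn8a and Scn2a differed in base composition, with 70.0% and 53.3% G and C in Scn8a and 33.0% and 47.7% in Scn2a. The GC box GGGCGG, which reads CCGCCC on the other strand and is bound by Sp factors, was in none of these 4 windows, but in 37.8% of the channel windows and 35.7% of all windows. These matches are descriptions of the letters and not of binding.

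The courses of the sodium channel genes in oil differed in shape. Scn8a peaked at 12 h, with 461, 420.0 and 452 at 1 h, 463, 409 and 448 at 3 h, 535, 525 and 499 at 6 h, 598, 596 and 622 at 12 h, and 549, 551 and 528 at 24 h (adjusted p = 0.000184 from limma). Scn2b, a sodium beta subunit that links pores to adhesion molecules, had its highest mean then too, with 151, 116 and 134 at 1 h, 161, 191 and 158 at 3 h, 241, 173 and 159 at 6 h, 234, 226 and 252 at 12 h, and 165, 158 and 190.4 at 24 h (adjusted p = 0.00304), and was lower at 24 h than at 12 h (log2 fold change -0.47, standard error 0.16, adjusted p = 0.0463 from limma). Scn1a had its lowest mean at 12 h, with 230.4, 241 and 252 at 1 h, 233, 264 and 259.7 at 3 h, 251, 211 and 204 at 6 h, 195, 214 and 216 at 12 h, and 295, 263 and 271 at 24 h, and was higher at 24 h than at 12 h (log2 fold change 0.40, standard error 0.10, adjusted p = 0.00479 from limma). All its arrays at 24 h were above all at 12 h. Of the 28 genes 5 passed this contrast, 3 higher and 2 lower, against 12.8% of all probe sets. The others were Scn3a (log2 fold change 0.24, adjusted p = 0.0455 from limma), Cacna1e and Cacna2d2. Without scaling Scn1a, Scn3a and Cacna1e were lower and not higher at 24 h than at 12 h, as the median of all probe sets was, and the calls of Scn2b and Scn3a were lost without any one of 13 and 15 arrays. Both were also lost with no filter on dim probe sets (adjusted p = 0.0738 and 0.065), and that of Scn2b with quantile normalization (adjusted p = 0.0744 from limma). The second probe set of Scn2b (-0.19, adjusted p = 0.615) and the third of Scn1a (0.30, adjusted p = 0.621) did not pass.

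Among the calcium pores, Cacna1e dipped in the middle of the course. In EB it read 804, 718 and 738 at 1 h, 679, 659.9 and 730.4 at 3 h, 570.3, 618 and 651 at 6 h, 701, 716 and 722 at 12 h, and 666, 711 and 658 at 24 h (adjusted p = 0.0244 from limma), with the 6 h arrays below all others. In oil it read 773, 735 and 738 at 1 h, 739.8, 693 and 670.3 at 3 h, 616, 562 and 615 at 6 h, 591, 599 and 659 at 12 h, and 774, 742 and 709.9 at 24 h (adjusted p = 0.000773), with both the 6 h and the 12 h arrays below all others. The fall in oil at 6 h against 3 h passed (log2 fold change -0.23, standard error 0.07, adjusted p = 0.0459 from limma), as the 1 of 28 genes against 6.48% of all probe sets, and was lost without any one of 20 arrays, with no filter on dim probe sets (adjusted p = 0.0563), with array weights (0.0748) and without scaling (0.652). The higher level in oil at 24 h against 12 h passed as well (log2 fold change 0.27, standard error 0.07, adjusted p = 0.011 from limma), and this call was lost without oil 12 h replicate 1 or oil 24 h replicate 1. Cacna1a, the P/Q-type pore of presynaptic terminals, had 170.4, 229 and 202 at 12 h and 139, 119.9 and 140.0 at 6 h in oil and was higher at 12 h (log2 fold change 0.59, standard error 0.13, adjusted p = 0.00641 from limma).

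Cacna1g in EB read 288, 299.9 and 283 at 1 h, 286, 317 and 309 at 3 h, 256, 335 and 372 at 6 h, 393, 354 and 360.1 at 12 h, and 264, 286 and 305 at 24 h, and at 24 h it was lower than at 12 h (log2 fold change -0.37, standard error 0.11, adjusted p = 0.0295 from limma), a call lost without EB 12 h replicate 1 or 3 or EB 24 h replicate 1 or 2. Together with Cacna1h, whose call was lost without EB 12 h replicate 3 or EB 24 h replicate 2, it made up the 2 of 28 genes called in this contrast. Of all probe sets 11.2% were called in it, so the count does not set the channel genes apart. In oil Cacna1g read 249, 257 and 249.7 at 1 h, 323, 250.3 and 225 at 3 h, 269, 272 and 233 at 6 h, 325, 329 and 358 at 12 h, and 331, 359.7 and 346 at 24 h (adjusted p = 0.00197 over time from limma). It was higher at 12 h than at 6 h (log2 fold change 0.39, standard error 0.11, adjusted p = 0.0289 from limma), a call lost without oil 6 h replicate 2 or 3 or oil 12 h replicate 1 or 3 and with quantile normalization (adjusted p = 0.0835), and all its oil arrays at 24 h also lay above all those at 6 h.

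At 12 h against 6 h in oil 4 of 28 genes passed, all higher, against 9.38% of all probe sets. Beside Cacna1a and Cacna1g these were Cacng2 and Cacng4, gamma subunits that also act as auxiliary subunits of AMPA receptors. Cacng2 read 378, 361 and 417 at 1 h, 375, 388 and 358 at 3 h, 356, 319.6 and 293 at 6 h, 481, 414 and 477 at 12 h, and 409, 348 and 454 at 24 h in oil (log2 fold change 0.50, standard error 0.11, adjusted p = 0.00432 from limma). Cacng4 read 757, 859 and 914 at 1 h, 816, 766 and 765 at 3 h, 673, 642 and 674 at 6 h, 841, 873 and 888 at 12 h, and 765, 674 and 825 at 24 h in oil (log2 fold change 0.39, standard error 0.09, adjusted p = 0.00608 from limma). For both genes the mean was lowest at 6 h and all 12 h arrays lay above all 6 h arrays, and neither call, nor that of Cacna1a, was lost when any array was left out. The dimmer probe sets of Cacng2 (0.31, adjusted p = 0.158, and 0.06, adjusted p = 0.928) and the second of Cacna1a (0.26, adjusted p = 0.295 from limma) did not pass. Cacng8, with 70.2, 64.9 and 59.4 at 1 h, 70.1, 59.0 and 34.0 at 3 h, 84.5, 81.5 and 66.4 at 6 h, 86.0, 83.3 and 108 at 12 h, and 104, 81.2 and 77.5 at 24 h in oil, passed the test over the 5 times (adjusted p = 0.00374 from limma) and had its highest means at 12 h and 24 h. Cacng3, another auxiliary subunit of AMPA receptors in this family, and Scn7a passed it too (adjusted p = 0.0384 and 0.0441 from limma).

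Of the alpha2delta and beta subunits, Cacna2d2, a target of gabapentin, read 872, 942 and 787 at 1 h, 900.1, 733 and 905 at 3 h, 943, 986 and 924 at 6 h, 1369, 1226 and 932 at 12 h, and 879.8, 1052 and 1174 at 24 h in EB (adjusted p = 0.0279 from limma), with the third 12 h array well below the other two. In oil it read 871, 938 and 866 at 1 h, 789, 649 and 909 at 3 h, 967, 1071 and 885 at 6 h, 1192, 1339 and 1229 at 12 h, and 974, 848 and 969 at 24 h (adjusted p = 0.00141), with the 12 h arrays above all others, and was lower at 24 h than at 12 h (log2 fold change -0.43, standard error 0.12, adjusted p = 0.0197 from limma, lost without oil 12 h replicate 2 or 3 or oil 24 h replicate 2), while its second probe set did not pass (-0.16, adjusted p = 0.867). Cacnb4 read 220.2, 279 and 227 at 1 h, 261, 285 and 266 at 3 h, 259.5, 218 and 263 at 6 h, 289, 307 and 314 at 12 h, and 324, 292 and 297 at 24 h in EB (adjusted p = 0.0167 from limma). In oil Cacnb4 read 207, 219 and 231 at 1 h, 220.2, 232 and 238 at 3 h, 304, 272 and 245 at 6 h, 287, 277 and 317 at 12 h, and 258, 236 and 245 at 24 h (adjusted p = 0.00518), so that its arrays at 24 h were below all those at 12 h, which was not so in EB.

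Scn9a in EB read 208, 209 and 251 at 1 h, 292, 227 and 322 at 3 h, 315, 298 and 259 at 6 h, 333, 345 and 319 at 12 h, and 364, 359.7 and 294 at 24 h (adjusted p = 0.0243 from limma), and all arrays at 12 h and 24 h were above those at 1 h. In oil Scn9a read 272, 191 and 308 at 1 h, 163, 257 and 226 at 3 h, 284, 233 and 295 at 6 h, 323, 296 and 346 at 12 h, and 252, 289.7 and 278 at 24 h (adjusted p = 0.0385), with all 12 h arrays above all arrays of 24 h.

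Different probe sets of one gene did not always move together. Of the 28 genes 20 had at least 2 probe sets above the filter, and of the 34 dimmer probe sets 13 were called over time in EB (22.8% of all probe sets) and 18 in oil (34.1%). Scn3b, a sodium beta subunit expressed early in development, had a second probe set that was lower in EB at 3 h, at 64.7, 48.3 and 42.5 in EB and 110.2, 81.0 and 105 in oil without overlap (log2 fold change -0.94, standard error 0.17, adjusted p = 0.00783 from limma), while its brightest probe set read 2145, 1989 and 2408 in EB and 1985, 1804 and 2119.8 in oil (log2 fold change 0.15, adjusted p = 0.51 from limma). It was the 1 of 34 dimmer probe sets called at 3 h (0.474% of all probe sets), and it was not called without EB 3 h replicate 3 (adjusted p = 0.0948), with array weights (adjusted p = 0.132) or in a fit of only the 6 arrays of 3 h (adjusted p = 0.172).

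Over time this second Scn3b probe set read 102, 80.9 and 85.4 at 1 h, 64.7, 48.3 and 42.5 at 3 h, 40.4, 41.0 and 47.7 at 6 h, 36.7, 43.3 and 46.7 at 12 h, and 69.1, 78.1 and 72.2 at 24 h in EB. In oil it read 119, 99.8 and 124 at 1 h, 110.2, 81.0 and 105 at 3 h, 46.7, 46.8 and 57.2 at 6 h, 29.8, 43.6 and 36.8 at 12 h, and 58.6, 73.7 and 77.6 at 24 h. In both treatments its means were lowest at 6 h and 12 h and it passed the test over time (adjusted p = 6.77e-05 in EB and 1.44e-07 in oil), and the EB arrays at 3 h were already below all oil arrays at 3 h. The brightest probe set stayed between 1694 and 2409 over all times and was not called over time (adjusted p = 0.649 in EB and 0.141 in oil from limma).

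The third probe set of Cacnb4 also had its lowest means at 6 h and 12 h, at 93.7, 118 and 88.5 at 1 h, 85.4, 95.8 and 74.1 at 3 h, 41.1, 52.0 and 51.8 at 6 h, 46.9, 51.6 and 34.4 at 12 h, and 89.1, 100.2 and 92.6 at 24 h in EB and 85.2, 101 and 89.1 at 1 h, 101, 92.1 and 81.3 at 3 h, 56.3, 65.1 and 62.8 at 6 h, 46.9, 41.7 and 37.1 at 12 h, and 89.5, 102 and 84.4 at 24 h in oil. At 24 h against 12 h it was higher in EB (log2 fold change 1.10, standard error 0.16, adjusted p = 2.98e-05 from limma) and in oil (log2 fold change 1.14, standard error 0.16, adjusted p = 1.46e-05 from limma), whereas the second probe set of the gene was lower in oil in the same contrast (log2 fold change -0.41, standard error 0.11, adjusted p = 0.0149 from limma). The second probe set of Scn1a and the third of Scn9a were also higher at 24 h than at 12 h in both treatments, with log2 fold changes of 0.63 and 1.05 in EB and 0.96 and 0.70 in oil (adjusted p of 0.00239, 0.00138, 1.81e-05 and 0.027 from limma). In this contrast 10 of 34 dimmer channel probe sets were called in EB, in either direction, against 11.2% of all probe sets. In oil 8 of 34 were, against 12.8%. The brightest probe set of Scn9a changed by 0.02 in EB and -0.24 in oil between these times and was not called (adjusted p = 0.95 and 0.348 from limma). Without scaling the oil changes of the second probe sets of Scn3b and Scn1a and the third of Scn9a turned to -0.0794, -0.0521 and -0.32, and that of the third of Cacnb4 was 0.12 and did not pass (adjusted p = 0.567). In EB the change of the third probe set of Cacnb4 still passed (0.45, adjusted p = 0.0436), while those of the second probe sets of Scn1a and Scn3b (-0.0188 and 0.15, adjusted p = 0.92 and 0.511) and of the third of Scn9a (0.40, adjusted p = 0.0971 from limma) did not. The parts of the transcript that these probe sets read were not used here.

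**Figure D5:**
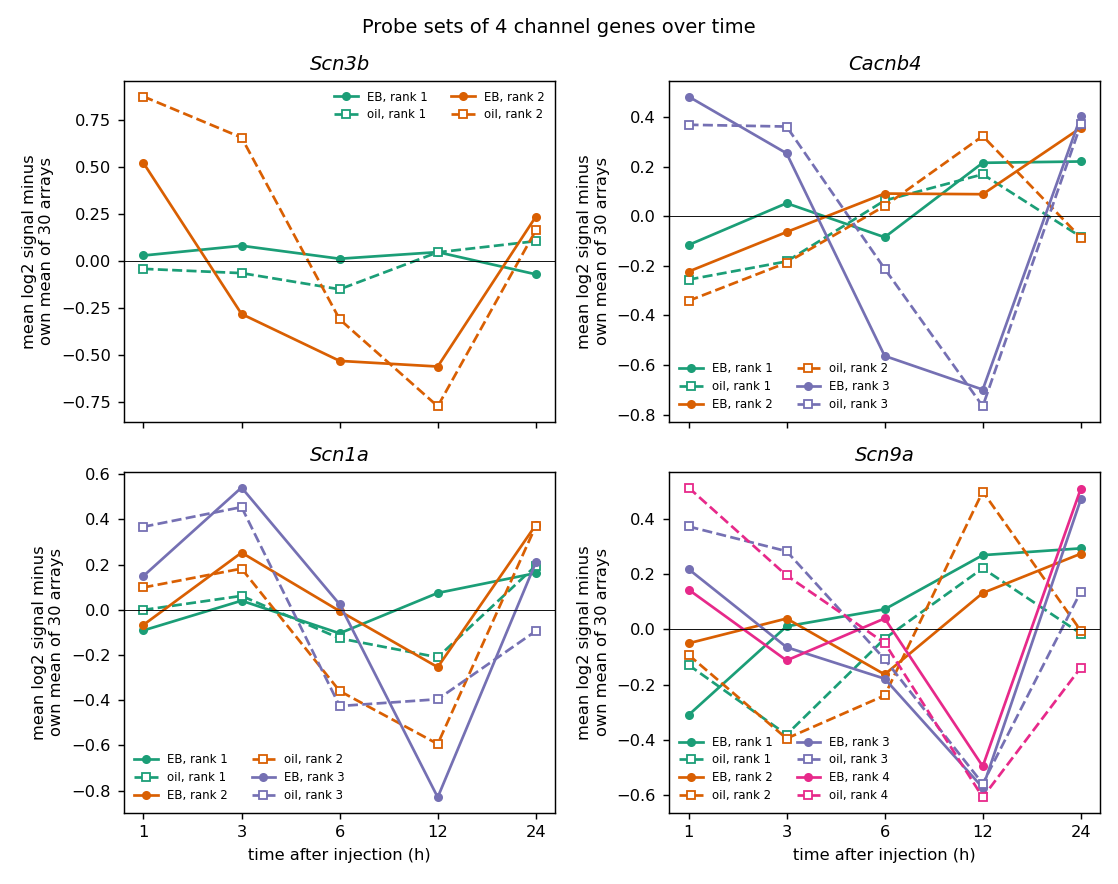
Mean log2 signal of each probe set minus its own mean over the 30 arrays (y axis) at each time (x axis, hours since injection) for Scn3b, Cacnb4, Scn1a and Scn9a, with solid lines and filled symbols for EB, dashed lines and open symbols for oil, one color per probe set, and means of 3 arrays. Rank 1 is the brightest probe set. The probe sets of rank 2 of Scn3b and rank 3 of Cacnb4 reach their lowest value at 12 h in both treatments, unlike the brightest probe set of the same gene.

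Partners of the channels were counted in the same tests. A list of 54 genes for proteins that bind, anchor or modulate these channels had 46 on the array and 43 above the filter. Of the 43, 12 were called over time in EB (22.8% of all probe sets) and 26 in oil (34.1%), and 0 were called for EB against oil at 1, 3, 6 or 12 h. At 24 h 2 of 43 passed (2.77% of all probe sets). Sptbn1, a spectrin of the submembrane skeleton to which ankyrin ties sodium channels, was lower in EB (log2 fold change -0.38, adjusted p = 0.000843 from limma) and passed the interaction (adjusted p = 0.0194), and Akap5, which anchors protein kinase A at calcium channels, was higher (log2 fold change 0.43, adjusted p = 0.0414). Leptomeningeal and other marker sets also differed at 24 h, as given above, and their part in the changes of Sptbn1 and Akap5 was not tested. Fgf14, which binds the tail of the sodium pores, was higher at 24 h than at 1 h in EB (log2 fold change 0.47, adjusted p = 0.000519) and in oil (0.33, adjusted p = 0.0151), and so was Akap6, another kinase anchor (0.29, adjusted p = 0.0206 in EB, and 0.40, adjusted p = 0.00369 in oil). In the same contrast 4 partners were higher and 2 lower in EB, where 10.2% of all probe sets passed, and 3 were higher and 0 lower in oil, where 6.77% did. The others in EB were Camk2a and Camk2d, kinases that phosphorylate both channel families (0.57, adjusted p = 0.0212, and 0.46, adjusted p = 0.0409), and, lower, Sptbn1 (-0.38, adjusted p = 0.00024) and Nrcam, an adhesion molecule of the axon initial segment (-0.43, adjusted p = 0.0485 from limma). The other in oil was Cntn1, an adhesion molecule of axons (0.44, adjusted p = 0.0384 from limma). Gnb1, a G protein beta subunit that inhibits presynaptic calcium channels, was called over time in EB and in oil (adjusted p = 0.0377 and 0.000855), and Sptbn4, the spectrin of the axon initial segment, in oil (adjusted p = 0.0031 from limma).

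The remaining channel genes passed no test or were dim. Cacna1b, the N-type pore of presynaptic terminals, with a signal of 742 to 1128 over the 30 arrays, and the L-type pores Cacna1c and Cacna1d passed no test at their brightest probe set, nor did Cacna2d1, Cacna2d3, Cacnb1, Cacnb2, Cacng5, Cacng7, Scn3b and Scn11a. Among the 28 genes above the filter Cacna1d had the smallest coefficient of variation over all arrays (6.63%) and Scn7a the largest (34.5%). The 7 genes below the filter were Cacna1f and Cacna1s, the L-type pores of retina and skeletal muscle, Cacna2d4, the muscle gamma subunit Cacng1, Cacng6, the sensory neuron pore Scn10a, and the beta subunit Scn4b. Their median signals lay between 1.08 for Scn10a and 19.1 for Cacng1, below or near the lowest mean signal kept of 21.9, and no test was made on them. The sodium pores Scn1a, Scn2a, Scn3a, Scn7a and Scn9a, 5 neighbours on chromosome 2, resemble each other in sequence, and cross-hybridization between them was not tested.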

How the data were processed

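Total RNA of the whole hypothalamus was hybridised to 30 one-color Affymetrix arrays. Per the labels, the deposited values are linear MAS5 intensity values, whose software version and target scaling were not stated in the sources read. Of 45101 probe sets 64 were controls, 34945 carried 1 gene symbol, 932 several and 9160 none, and 0 symbols changed on updating. No column was left without a sample (0). Scaling brought every array's median to their mean (41.3), signals under 1 were set to 1, and log2 was taken. The lowest 40% by mean was left out (27022 kept, from a mean signal of 21.9). The 10 groups entered a single limma model (version 3.58.1, R 4.3.3, eBayes with trend), with Benjamini-Hochberg adjustment over all kept and a threshold of 0.05. The unmoderated test, an alternative, takes the treatment contrast at each time from a fit of deposited signals on treatment and time, adjusted in the same way. The study's Bonferroni test and fold threshold were not applied here. P-values measure the spread between arrays labelled as biological replicates, and 3 arrays a group limit the precision. No pair of arrays was identical (0). The fit was also run on simulated data with known changes, larger than most of those of the channel genes. Its outcome is not given here, so it says nothing on how well changes of the size reported here are recovered. Alternatives covered scaling, floor, filter, array weights, replicate block, fewer arrays and every probe set.

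Named genes are those called in a comparison, up to 10 each by adjusted p, the 2 of smallest p at each time, and up to 8 partners by adjusted p. The partners Camk2d and Nrcam, other probe sets and contrasts between successive times were chosen after their values were seen. Members and lists were chosen with earlier results of these data known.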

Additional observations from a re-analysis of the deposited data

Results flagged for a closer look

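Both T-type pores had EB arrays all above the oil arrays at one time and all below at another. For Cacna1h this was higher at 3 h and lower at 24 h, with an adjusted p of 0.058 for the difference of the EB effect between times (interaction, limma). With each array left out in turn this p lay between 0.0366 and 0.168 and passed in 7 of 30 cases. For Cacna1g it was higher at 1 h and lower at 24 h, with an adjusted p of 0.17, which lay between 0.0451 and 0.372 with each array left out and passed in 1 of 30 cases. Such separations are common at these times, where 17.6% (1 h), 14% (3 h) and 24.1% (24 h) of all probe sets had groups that did not overlap.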

How the results depend on the processing

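Counts of channel genes kept within 1.5 times of the reported value except in the following cases. Without scaling 0 genes were called for EB against oil at 24 h, 28 over time in EB, 28 over time in oil, and 0 at 24 h against 1 h in either treatment. With array weights 2 were called at 24 h, 2 for the interaction, 10 over time in EB and 4 at 24 h against 1 h in EB. With the lowest 60% left out 1 of 25 passed the interaction. With every one of the 62 probe sets counted, 1 passed at 3 h, 2 at 24 h, 18 over time in EB, 35 over time in oil, and 7 at 24 h against 1 h in each of EB and oil. The unmoderated test on deposited signals called 1 at 12 h and 0 at 24 h. The cause of these shifts was not tested, apart from the array medians given above and the larger number of probe sets counted. Of the alternative fits, shares of all probe sets are given only for the unmoderated test. The counts of the others, here and below, therefore do not set the channel genes apart from the rest.

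With each array left out in turn, 0 to 1 genes were called at 24 h, 0 to 2 for the interaction, 3 to 7 over time in EB, 12 to 17 over time in oil, and at 24 h against 1 h 0 to 3 in EB and 1 to 5 in oil, while the counts at 1, 3, 6 and 12 h and for the mean of the 5 times were 0 in every case. With the replicate number as a replicate block 1 gene, Cacna1h, passed the interaction (adjusted p = 0.0487), Scn3a at 24 h against 12 h in oil no longer passed (adjusted p = 0.0532), and no other count moved by over 1.5 times. The numbers showed no pairing: for 15 same-numbered pairs of EB and oil arrays the correlation of deviations from the group means lay between -0.13 and 0.09, with 0 over 0.1.

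For the 29 named fold changes, 952 values under alternatives kept direction and call, 127 lost the call and 12 turned direction. Leaving out an array of a group that is not compared cannot alter the fold change. The 952 therefore include many values whose direction was fixed in advance. Without scaling, at 24 h against 12 h in oil, Cacna1e was -0.75, Scn1a -0.61, Scn3a -0.77, the rank 2 probe sets of Scn1a -0.0521 and of Scn3b -0.0794, and the rank 3 probe set of Scn9a -0.32. In EB the rank 2 probe set of Scn1a was -0.0188, and at 24 h against 1 h in oil Scn8a was -0.0097. In that last contrast other probe sets gave -0.30 for Scn2a (rank 4) and -0.0604 (rank 3) and -0.15 (rank 4) for Scn8a, and in EB the rank 3 probe set of Cacnb4 gave -0.0801. Probe sets with a mean signal under 21.9 were not tested, so no change of the 7 dim genes could be called.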

Other observations

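A further 2 genes had a dimmer probe set whose course departed from that of the brightest, for Cacng4 in EB only, chosen after their values were seen. The second probe set of Cacng4 read 346, 370.3 and 383 in EB and 503, 461 and 553 in oil at 24 h, without overlap (log2 fold change -0.46, adjusted p = 0.0623 from limma), while the brightest read 751, 774 and 745 in EB and 765, 674 and 825 in oil. Against 12 h this second probe set was lower at 24 h in EB (-0.70, adjusted p = 0.000977) and in oil (-0.47, adjusted p = 0.0205 from limma). In oil the brightest probe set of Cacng4 changed in the same direction without passing (-0.20, adjusted p = 0.127 from limma). In this contrast 11.2% of all probe sets passed in EB and 12.8% in oil.

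The second probe set of Cacna2d1, an alpha2delta subunit and gabapentin receptor, read 404, 407 and 336 at 1 h, 350.0, 331 and 424 at 3 h, 273, 302 and 234 at 6 h, 153, 276 and 244 at 12 h, and 475, 415 and 206 at 24 h in EB. In oil it read 442, 462 and 328 at 1 h, 445, 435 and 379 at 3 h, 306, 195 and 280.1 at 6 h, 217, 203 and 179 at 12 h, and 381, 495 and 293 at 24 h. Its mean was lowest at 12 h in oil and it was higher at 24 h than at 12 h there (log2 fold change 0.94, adjusted p = 0.00723 from limma), while the third EB array at 24 h stayed near the 12 h level. The brightest probe set of the gene changed by -0.12 in the same contrast (adjusted p = 0.681 from limma).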
